A study of Rattus norvegicus with 9 samples.

Results

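Genes of neural progenitors and of the cell division cycle were followed in primary cortical neurons of the rat under electrical stimulation. The 36 genes were set by name, with earlier results of these data known. They are progenitor markers, cyclins and their kinase, DNA replication factors and mitotic proteins. Of these, 34 have a row of the same gene name among the 32623 entries of the table, all 34 passed the filter on low counts, and Ccnb2 and E2f1 were not analysed here. The neurons came from wild-type Wistar embryos of embryonic day 16 to 18 and, for the study, were grown on glass coated with indium tin oxide, a transparent conductor. The ACS group received alternating current and the DCS group (named DES in the labels) direct current, each at 3 µA for 20 min per day for 7 days, and the control group was left without current. The labels give 20 Hz for both currents. All 3 groups are labelled day 7 in vitro, although culture to day 14 is also described. Each group has 3 libraries, 9 in all. Whether they stem from separate cultures is not stated, and the p-values cover only the variation among these libraries, which may be technical.

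Radial glia and intermediate progenitors divide in the embryonic cortex and give rise to neurons, which leave the cell cycle for good. Primary cortical cultures usually also hold some progenitors, glial precursors and other non-neuronal cells, which can divide. In a dividing cell, D cyclins and their kinases release E2F factors from the retinoblastoma protein. E2F factors switch on replication genes at the border of G1 and S phase, and a later wave of transcription, through promoter elements called CHR and CCAAT box, supplies the proteins of G2 and mitosis. In bulk RNA, fewer cells of a type and less RNA per cell cannot be told apart.

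The estimated counts summed to 49039412 to 52938628 in the ACS libraries, 52370330 to 68133858 in the DCS libraries and 53910745 to 68690760 in the control libraries. The members' counts ranged from 181 to 23353 in a library, and low counts pile up at multiples of 4 (34.1% of the counts from 1 to 15), so the number of fragments behind a count may be smaller than the count. Together the 34 genes made up 0.193% to 0.207% of the counts in the ACS libraries, 0.210% to 0.228% in the DCS libraries and 0.224% to 0.226% in the control libraries. Correlations of log2 FPKM between libraries lay between 0.969 and 0.979. Levels within a gene are given as CPM (counts scaled to the TMM-adjusted library total), levels between genes as FPKM, which takes account of transcript length, and differences as log2 fold changes from edgeR's quasi-likelihood test with adjusted p-values over the 16284 genes tested.

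Under ACS the mitotic gene Mki67 and the progenitor marker Vim were lower than in control neurons, and no other member passed the test. Of the 34 genes, 2 fell and none rose at an adjusted p under 0.05, where 1.33% of all tested genes fell and 2.83% rose (4.16% in either direction). Below 0 on the log2 scale were 29 of 34, against 50.5% of all tested genes, and the median log2 fold change was -0.14, against -0.00287 over all genes. At an unadjusted p under 0.05, 15 were lower (10.0% of all genes), and none was higher (10.8% of all genes). In 16 of the 34, all 3 ACS libraries lay below all 3 control libraries (13.0% of all genes), and in none did they lie above (14.0%). Because the list was chosen with earlier results of these data known, these shares describe the members and are not a test. The members are more abundant than most genes, with a median of 2241 counts per library against 1035 over all tested genes, and their median standard error was 0.08 against 0.11. The log2 fold changes ran from -0.34 for Ccnd1 to 0.24 for Eomes, so every difference stayed well within a doubling. The number called depended on the tool and the libraries kept. It was 8 with DESeq2, 1 with limma, and with 1 library left out it was 0 without ACS library 1 or 2, DCS library 1 or 2, or control library 1 or 2, 1 without ACS library 3, 4 without DCS library 3 and 5 without control library 3. The count below 0 moved only between 27 and 31 in these 9 fits.

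**Figure D1:**
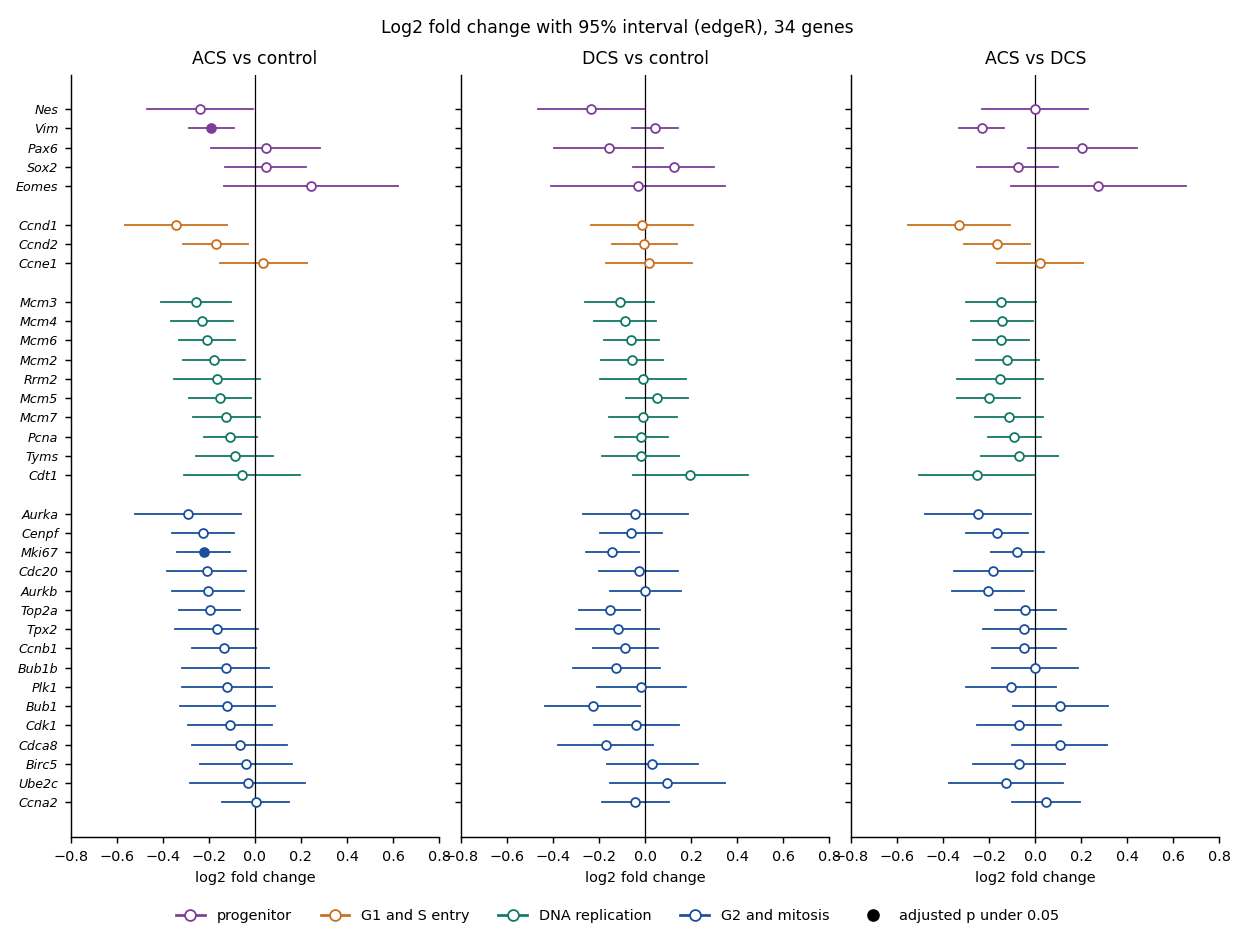
Log2 fold change of each of the 34 genes (points) with its 95% interval from edgeR (lines) for ACS against control, DCS against control and ACS against DCS, grouped by role; filled points passed an adjusted p under 0.05. Under ACS 29 of the 34 points lie left of 0, with Mki67 and Vim filled, and under DCS 26 lie left of 0 and none is filled.

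The plot of FPKM by gene shows how far these transcripts differ in abundance. Vim was the most abundant at a mean of 159 FPKM over the 9 libraries, followed by Pcna at 80.5 FPKM, Ccnd2 at 45.2 FPKM and Sox2 at 40.0 FPKM. Between these and the rarest genes, most replication and mitotic transcripts lay between Rrm2 and Cenpf, that is from 32.3 FPKM to 8.07 FPKM, with Mki67 at 19.2 FPKM. Eomes was lowest at 1.86 FPKM, below Ube2c at 4.48 FPKM and Cdt1 at 4.55 FPKM. Within a group the genes were reproducible, with a median coefficient of variation over the 3 libraries of 6.62% under ACS, 5.06% under DCS and 5.98% in control neurons.

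**Figure D2:**
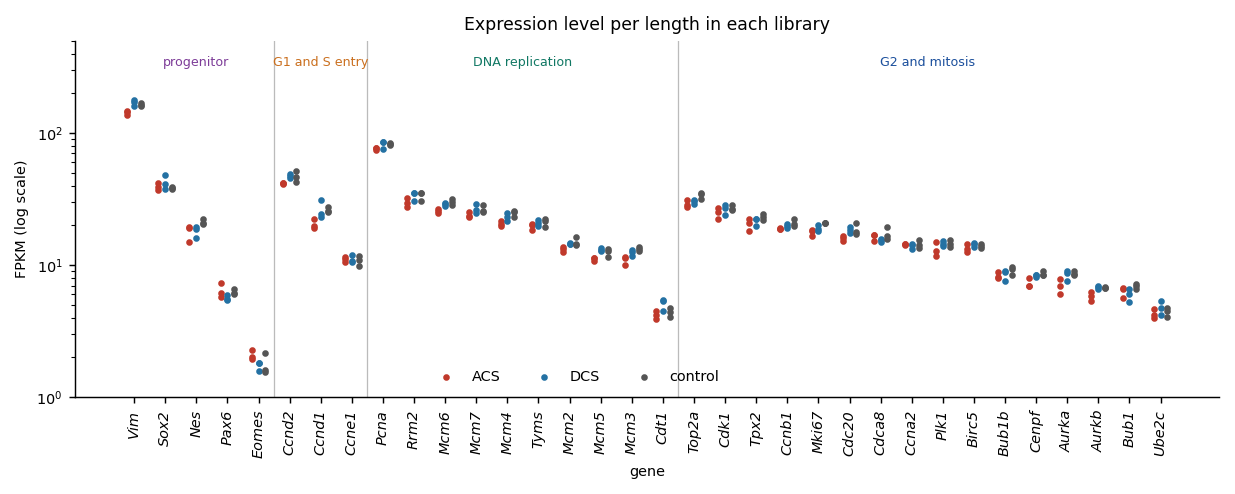
FPKM on a log axis for each of the 34 genes in each library (points, coloured by group), ordered by role and by mean level. The genes span from Eomes at a mean of 1.86 FPKM to Vim at 159 FPKM, and the 3 groups of a gene lie close together compared with the differences between genes.

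Of the 5 progenitor markers, Vim passed the test under ACS, Nes had a negative log2 fold change, and the transcription factors Sox2, Pax6 and Eomes had positive ones that missed the threshold. Vim, the intermediate filament protein of radial glia and also of astrocytes and many non-neural cells (chromosome 17, 80882666 to 80891212, plus strand, in the table), had 266, 281 and 283 CPM in the ACS libraries, 309, 330.0 and 336 CPM in the DCS libraries and 309.7, 325 and 311 CPM in the control libraries. The ACS libraries lay below all others, while DCS and control overlapped. Vim fell by 12.3% under ACS against control, a log2 fold change of -0.19 (SE 0.04, adjusted p = 0.0461 from edgeR), and against DCS its log2 fold change was -0.23 (SE 0.04, adjusted p = 0.0559). Its call against control stood without DCS library 3 (adjusted p = 0.0396) or control library 3 (0.0374) and was lost without ACS library 1 (0.165), 2 (0.118) or 3 (0.0813), DCS library 1 (0.0506) or 2 (0.0734), or control library 1 (0.117) or 2 (0.173). With limma (0.0574 and 0.0563 with pseudocounts of 0.1 and 1), no filter on low counts (0.0569) or only the ACS and control libraries (0.0577) it also missed the threshold. Nes, the intermediate filament protein nestin of dividing progenitors, had 121, 95.2 and 123 CPM in the ACS libraries, 122, 118 and 99.7 CPM in the DCS libraries and 132, 140.2 and 128 CPM in the control libraries. Both stimulated groups lay below control, ACS library 2 and DCS library 3 lowest, with log2 fold changes of -0.24 under ACS (adjusted p = 0.224) and -0.24 under DCS (adjusted p = 0.693).

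Sox2, the transcription factor that maintains neural stem cells and is also made by astroglia, had 90.3, 94.1 and 102 CPM in the ACS libraries, 98.9, 89.8 and 113 CPM in the DCS libraries and 91.7, 92.1 and 93.2 CPM in the control libraries. The groups overlapped, and DCS library 3 was highest. Its log2 fold change was 0.05 under ACS (95% interval -0.13 to 0.22, adjusted p = 0.778) and 0.12 under DCS (-0.05 to 0.30, adjusted p = 0.729). Pax6, which specifies cortical radial glia, had 19.3, 15.9 and 14.8 CPM in the ACS libraries, 14.5, 15.2 and 13.8 CPM in the DCS libraries and 15.6, 17.1 and 15.7 CPM in the control libraries. ACS library 1 was highest and the DCS libraries lay below all control libraries, with log2 fold changes of 0.05 under ACS (adjusted p = 0.842) and -0.16 under DCS (adjusted p = 0.738). Eomes (Tbr2), which marks the intermediate progenitors that produce excitatory neurons, had 4.5, 4.28 and 4.97 CPM in the ACS libraries, 3.47, 3.98 and 3.92 CPM in the DCS libraries and 3.53, 3.38 and 4.7 CPM in the control libraries. The ACS libraries lay above the DCS libraries but overlapped control library 3, with a log2 fold change of 0.24 against control (95% interval -0.14 to 0.62, adjusted p = 0.455) and 0.27 against DCS (adjusted p = 0.525). The 5 progenitor members thus had a median log2 fold change of 0.05 under ACS, with 2 of 5 below 0.

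**Figure D3:**
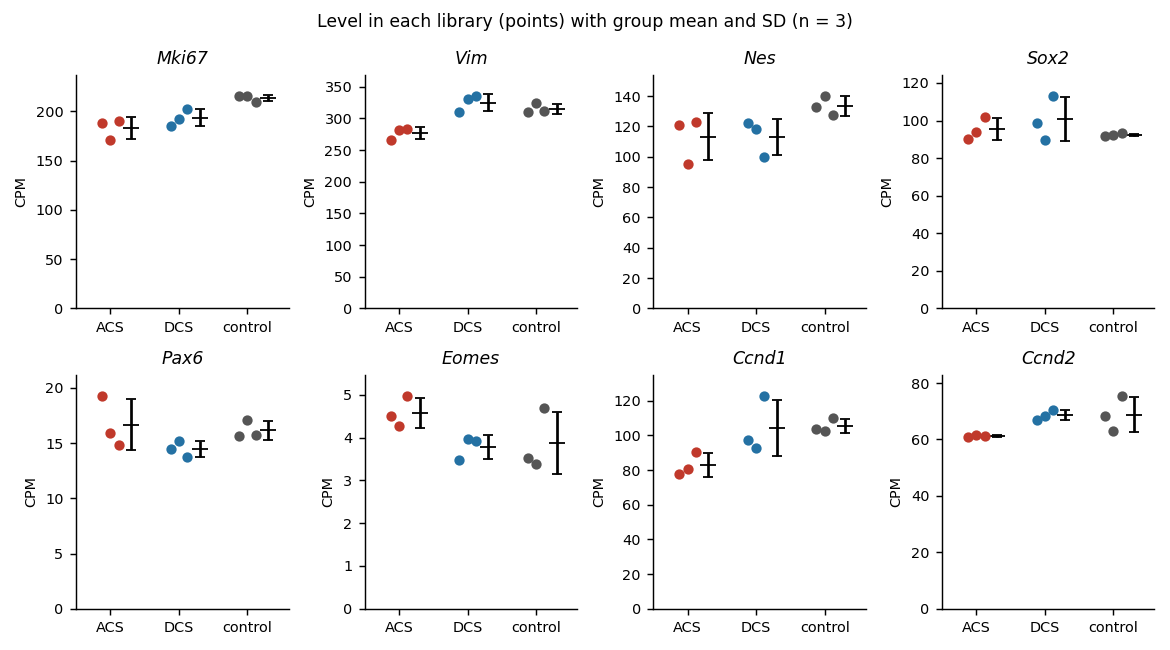
CPM in each library (points) with the mean and SD of each group (bars, n = 3) for Mki67, the 5 progenitor markers and the 2 D cyclins among the members. The ACS points of Vim, Ccnd1 and Ccnd2 lie below all DCS and control points, those of Mki67 and Nes below the control points, and those of Sox2, Pax6 and Eomes overlap control.

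The D cyclins couple growth signals to entry into the cycle and partner the kinases Cdk4 and Cdk6. Ccnd1 and Ccnd2, the members among them, were lower under ACS than in either other group without passing the adjusted test. Ccnd1 had 77.8, 80.3 and 90.6 CPM in the ACS libraries, 97.5, 92.9 and 123 CPM in the DCS libraries and 104, 102 and 109.8 CPM in the control libraries. All ACS libraries lay below all others, and DCS library 3 was highest. Its log2 fold change was the lowest of the 34 at -0.34 under ACS (SE 0.10, adjusted p = 0.0848 from edgeR) and -0.01 under DCS (95% interval -0.23 to 0.21, adjusted p = 0.988). Ccnd2 had 60.9, 61.5 and 61.1 CPM in the ACS libraries, 66.9, 68.4 and 70.6 CPM in the DCS libraries and 68.2, 63 and 75.4 CPM in the control libraries, again with the ACS libraries below all others and with a coefficient of variation of 0.499% among them. Its log2 fold change was -0.17 under ACS (adjusted p = 0.161) and -0.0045 under DCS (95% interval -0.15 to 0.14). Ccne1, the cyclin of Cdk2 at the start of S phase, averaged 22.5 ± 1.12 CPM under ACS, 22.2 ± 1.22 CPM under DCS and 21.9 ± 1.95 CPM in control neurons (SD, n = 3 each), with log2 fold change 0.04 under ACS (95% interval -0.15 to 0.22).

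All 10 replication genes had log2 fold changes below 0 under ACS, with a median of -0.16, and none passed the adjusted test. In 6 of them, Mcm2 to Mcm6 and Pcna, the ACS libraries lay below all control libraries (13.0% of all genes), and 5, the same without Pcna, were lower at an unadjusted p under 0.05 (10.0% of all genes). Mcm2 to Mcm7 encode the helicase that is loaded on replication origins in G1 and unwinds DNA in S phase. Mcm3 had 30.7, 34.8 and 35.3 CPM in the ACS libraries, 35.5, 39 and 37.1 CPM in the DCS libraries and 38.9, 40.2 and 41.4 CPM in the control libraries. For Mcm3 the log2 fold change was -0.26 under ACS (SE 0.07, adjusted p = 0.0644). Mcm6 had 80.9, 77.4 and 75.9 CPM in the ACS libraries, 87.9, 89 and 83.2 CPM in the DCS libraries and 95.6, 90.4 and 85 CPM in the control libraries. The log2 fold change of Mcm6 was -0.21 (SE 0.05, adjusted p = 0.0621). Mcm4 had 69.6, 75.5 and 71.8 CPM in the ACS libraries, 74.7, 80.2 and 84.8 CPM in the DCS libraries and 79.9, 87.2 and 87.4 CPM in the control libraries. For Mcm4 the log2 fold change was -0.23 (adjusted p = 0.0648). In these genes the ACS libraries lay below all control libraries, and in Mcm3 and Mcm6 also below all DCS libraries. Mcm2 had 43.3, 44.6 and 46.5 CPM in the ACS libraries, 49.3, 48.9 and 48 CPM in the DCS libraries and 48.1, 48.9 and 55 CPM in the control libraries. The log2 fold change of Mcm2 was -0.18 under ACS (adjusted p = 0.132). Mcm5 had 35.8, 37.4 and 37.2 CPM in the ACS libraries, 43.9, 42.3 and 41 CPM in the DCS libraries and 42, 37.9 and 42.8 CPM in the control libraries. Its ACS libraries lay below both other groups, with log2 fold changes of -0.15 against control (adjusted p = 0.192) and -0.20 against DCS (adjusted p = 0.169). Mcm7, the last of the 6, had a log2 fold change of -0.12 with overlapping groups.

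Pcna, the sliding clamp of DNA polymerases, averaged 92.3 ± 1.78 CPM under ACS, 98.3 ± 6.22 CPM under DCS and 99.4 ± 2.21 CPM in control neurons (SD, n = 3 each), with log2 fold change -0.11 under ACS (adjusted p = 0.271). Rrm2 and Tyms, which supply deoxynucleotides, had log2 fold changes of -0.16 and -0.09 under ACS with overlapping groups. Cdt1, which loads the helicase and is destroyed in S phase, had 9.81, 10.5 and 9.11 CPM in the ACS libraries, 10.4, 12.6 and 12.1 CPM in the DCS libraries and 10.2, 9.43 and 10.9 CPM in the control libraries. DCS libraries 2 and 3 were highest, and its log2 fold changes were -0.06 for ACS against control (95% interval -0.31 to 0.19), 0.20 for DCS against control (adjusted p = 0.706) and -0.25 for ACS against DCS (adjusted p = 0.354).

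The replication promoters carry the letters that E2F factors bind. Of the 34 genes, 26 matched the RefSeq promoter table (build GRCr8) by symbol, each with 1 window from 250 bases before to 50 after the annotated start, and Ccna2, Ccnd1, Ccnd2, Aurkb, Mcm4, Rrm2, Tpx2 and Ube2c did not. The letters searched on both strands were TTTCCCGC, TTTCGCGC, TTTGCCGC and TTTGGCGC for E2F, CCAAT for the CCAAT box and TTTGAA for the CHR, and matches may overlap. E2F letters were found in 7 of 8 replication windows (87.5%), 1 of 12 windows of G2 and mitosis (8.33%) and 618 of 27457 windows of all genes (2.25%). The 2 replication genes with the lowest p under ACS and a window are shown, Mcm6 at chr13:42404303-42404602 and Mcm3 at chr9:30733697-30733996, both on the minus strand of GRCr8 and printed 5′ to 3′ in gene direction with the matches in capitals.
Mcm6: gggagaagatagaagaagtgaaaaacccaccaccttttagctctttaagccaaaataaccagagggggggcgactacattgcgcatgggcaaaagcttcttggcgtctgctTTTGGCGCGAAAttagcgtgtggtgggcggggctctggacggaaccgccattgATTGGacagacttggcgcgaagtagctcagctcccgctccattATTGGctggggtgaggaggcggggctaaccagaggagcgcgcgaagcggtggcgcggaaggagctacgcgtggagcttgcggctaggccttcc
Mcm3: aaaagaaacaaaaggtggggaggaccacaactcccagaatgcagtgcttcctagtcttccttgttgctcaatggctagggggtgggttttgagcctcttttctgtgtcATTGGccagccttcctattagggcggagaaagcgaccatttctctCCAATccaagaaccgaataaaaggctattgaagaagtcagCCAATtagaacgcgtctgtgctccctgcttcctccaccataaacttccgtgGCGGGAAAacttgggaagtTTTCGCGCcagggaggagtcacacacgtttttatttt
In Mcm6, TTTGGCGC and the reverse complement of TTTCGCGC overlap from -139 to -128, counting the first base of the transcript as 1, and CCAAT letters follow in reverse at -86 and -43. In Mcm3, CCAAT letters stand at -142, -97 and -57, and E2F letters at -6 and 14. A match is a description of the letters and not of a bound site.

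Of the 16 genes of G2 and mitosis, 15 had log2 fold changes below 0 under ACS, with a median of -0.13, and Mki67 passed the test. Mki67 encodes Ki-67, the protein that coats mitotic chromosomes and marks cycling cells, and lies in the table, which names no genome build, on chromosome 1 from 207993895 to 208020454, minus strand. It had 188, 171 and 191 CPM in the ACS libraries, 186, 192 and 203 CPM in the DCS libraries and 216, 215 and 209 CPM in the control libraries. Both stimulated groups lay below all control libraries, ACS library 2 lowest, and overlapped each other. Between ACS and DCS the log2 fold change was -0.08 (95% interval -0.19 to 0.04, adjusted p = 0.547 from edgeR). Mki67 fell by 14.3% under ACS, a log2 fold change of -0.22 (SE 0.05, adjusted p = 0.0449 from edgeR), and under DCS its log2 fold change was -0.14 (SE 0.05, adjusted p = 0.692). The call under ACS stood without DCS library 3 (adjusted p = 0.0337) or control library 3 (0.0362) and was lost without ACS library 1 (0.108), 2 (0.142) or 3 (0.0652), DCS library 1 (0.0594) or 2 (0.0715), or control library 1 (0.141) or 2 (0.154). With limma (0.0621 and 0.0620 with pseudocounts of 0.1 and 1), the replicate number as a block (0.0619) or only the ACS and control libraries (0.0577) it also missed the threshold.

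Top2a, the topoisomerase that untangles replicated chromosomes, had 167, 159.6 and 181 CPM in the ACS libraries, 169, 177 and 177 CPM in the DCS libraries and 199, 202 and 180.5 CPM in the control libraries. ACS and control overlapped by a narrow margin (ACS library 3 and control library 3), with log2 fold changes of -0.20 under ACS (adjusted p = 0.0948) and -0.15 under DCS (adjusted p = 0.692). Cenpf, a kinetochore protein of G2 and mitosis, had 73.6, 73.1 and 83.3 CPM in the ACS libraries, 87.4, 84.1 and 86.5 CPM in the DCS libraries and 94.8, 87.9 and 86.3 CPM in the control libraries. For Cenpf the log2 fold change was -0.23 under ACS (SE 0.06, adjusted p = 0.0678), with the ACS libraries below both other groups. Aurka, the kinase of spindle poles, had 17.2, 15 and 19.4 CPM in the ACS libraries, 18.6, 21.1 and 21.6 CPM in the DCS libraries and 20.9, 20.5 and 21.9 CPM in the control libraries. The log2 fold change of Aurka was -0.29 under ACS (adjusted p = 0.142). Its ACS libraries spread more than those of control but did not reach them. Aurkb, the kinase of the chromosomal passenger complex, had 29.1, 26.7 and 24.4 CPM in the ACS libraries, 31.3, 29.9 and 31.3 CPM in the DCS libraries and 31, 30.9 and 30.6 CPM in the control libraries. For Aurkb the log2 fold change was -0.21 under ACS (adjusted p = 0.131) and 0.00 under DCS. Cdc20, the activator of the ligase that ends mitosis, had 34.9, 38.1 and 36.9 CPM in the ACS libraries, 39.8, 43.7 and 41.2 CPM in the DCS libraries and 39.1, 40.8 and 47.2 CPM in the control libraries. The log2 fold change of Cdc20 was -0.21 under ACS (adjusted p = 0.155). In Aurkb and Cdc20 the ACS libraries lay below both other groups.

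The remaining mitotic genes overlapped between ACS and control except Ccnb1. Ccnb1, the cyclin that drives Cdk1 into mitosis, averaged 31.6 ± 0.635 CPM under ACS, 32.7 ± 1.16 CPM under DCS and 34.7 ± 2.22 CPM in control neurons (SD, n = 3 each), with log2 fold change -0.13 under ACS (adjusted p = 0.26). Cdk1, the mitotic kinase, had one of -0.11, Plk1, a kinase of centrosomes and kinetochores, -0.12, and Tpx2, a spindle assembly factor, -0.17. The checkpoint kinases Bub1 and Bub1b were at -0.12 and -0.13. Bub1 had 31.1, 26.5 and 31.6 CPM in the ACS libraries, 24.7, 28 and 30 CPM in the DCS libraries and 33.8, 32.6 and 30.5 CPM in the control libraries. The DCS libraries lay below the control libraries without overlap, a log2 fold change of -0.23 (adjusted p = 0.692). The smallest differences were those of Ccna2, a cyclin of S phase and G2, at 0.00, Ube2c, a ubiquitin-conjugating enzyme of mitotic exit, at -0.03, Birc5 (survivin) at -0.04 and Cdca8 (borealin) at -0.07, the last pair being partners of Aurkb. The Ccna2 locus overlaps Exosc9 on the other strand, and whether the counting used strand is not given in the sources used here.

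**Figure D4:**
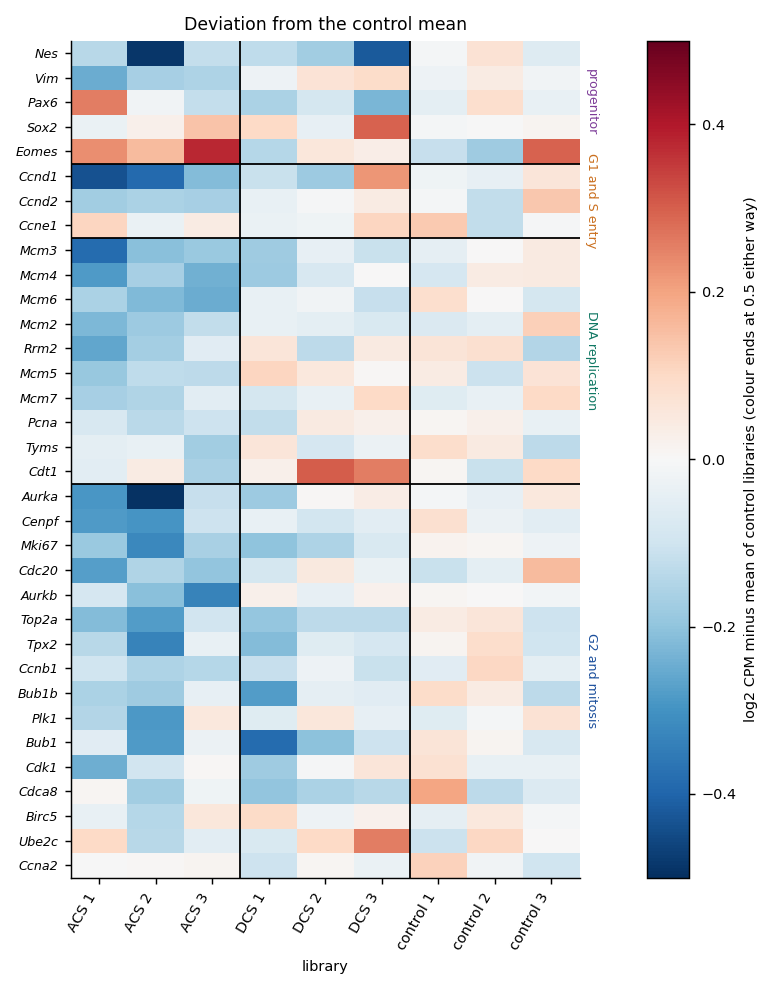
Log2 CPM minus the mean of the 3 control libraries for each of the 34 genes (rows, by role) in each library (columns); blue is below and red above the control mean. Between 27 and 30 of the 34 genes are below the control mean in each ACS library, against 17 to 27 in the DCS libraries. Eomes is the one gene above it in all 3 ACS libraries.

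The mitotic promoters carry the other pair of elements, of which CCAAT is also frequent in replication promoters. CCAAT letters, with or without CHR, were found in 9 of 12 windows of G2 and mitosis (75.0%) and 5 of 8 replication windows (62.5%). Of the windows of all genes, 37.7% had them. CHR letters were found in 9 of 12 windows of G2 and mitosis (75.0%), 1 of 8 replication windows (12.5%) and 4962 of 27457 windows of all genes (18.1%). Windows with both CHR and CCAAT letters were 8 of 12 in G2 and mitosis (66.7%), 0 of 8 in replication and 1991 of all windows (7.25%). Mki67 and Cenpf, with the lowest p under ACS among mitotic genes that have a window, are shown at chr1:199952544-199952843 and chr13:103760837-103761136, minus strand of GRCr8, with matches in capitals, and Vim at chr17:81577011-81577310, plus strand, as the progenitor marker that passed the test.
Mki67: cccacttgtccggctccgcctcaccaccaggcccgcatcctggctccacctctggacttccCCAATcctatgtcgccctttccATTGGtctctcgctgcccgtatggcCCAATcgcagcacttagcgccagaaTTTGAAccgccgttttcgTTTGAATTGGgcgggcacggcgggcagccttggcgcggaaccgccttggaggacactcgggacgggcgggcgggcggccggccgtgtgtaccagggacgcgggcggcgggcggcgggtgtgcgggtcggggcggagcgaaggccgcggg
Cenpf: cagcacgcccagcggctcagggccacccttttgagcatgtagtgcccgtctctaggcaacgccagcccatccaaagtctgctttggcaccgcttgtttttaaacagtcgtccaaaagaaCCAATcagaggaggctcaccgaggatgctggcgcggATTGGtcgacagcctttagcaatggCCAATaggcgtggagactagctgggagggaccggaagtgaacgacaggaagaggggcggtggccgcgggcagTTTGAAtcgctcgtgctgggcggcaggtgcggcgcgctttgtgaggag
Vim: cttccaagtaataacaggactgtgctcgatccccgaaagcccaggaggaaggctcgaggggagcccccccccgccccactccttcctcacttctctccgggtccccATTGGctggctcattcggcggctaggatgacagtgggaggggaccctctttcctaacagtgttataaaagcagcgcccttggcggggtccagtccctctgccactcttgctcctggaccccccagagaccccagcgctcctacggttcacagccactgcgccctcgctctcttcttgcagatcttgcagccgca
Mki67 has CHR letters at -117 and -99, the second of them sharing a base with a reversed CCAAT, and 4 CCAAT matches from -189 to -90. Cenpf has 3 CCAAT matches from -131 to -66 and CHR letters at 3, just past the start. Vim has a single reversed CCAAT at -144 and neither E2F nor CHR letters. The median log2 fold change under ACS was -0.14 over the 8 members with E2F letters, -0.12 over the 9 with CHR and CCAAT letters (Cdk1 is in both) and -0.18 over the 4 with none of the letters, Aurka, Bub1, Ccne1 and Nes. The wider lists of replication and mitosis genes were searched too, with E2F letters in 10 of 24 windows of other replication genes (41.7%) and 0 of 40 of other mitosis genes, and CHR with CCAAT letters in 2 of 24 (8.33%) and 23 of 40 (57.5%).

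**Figure D5:**
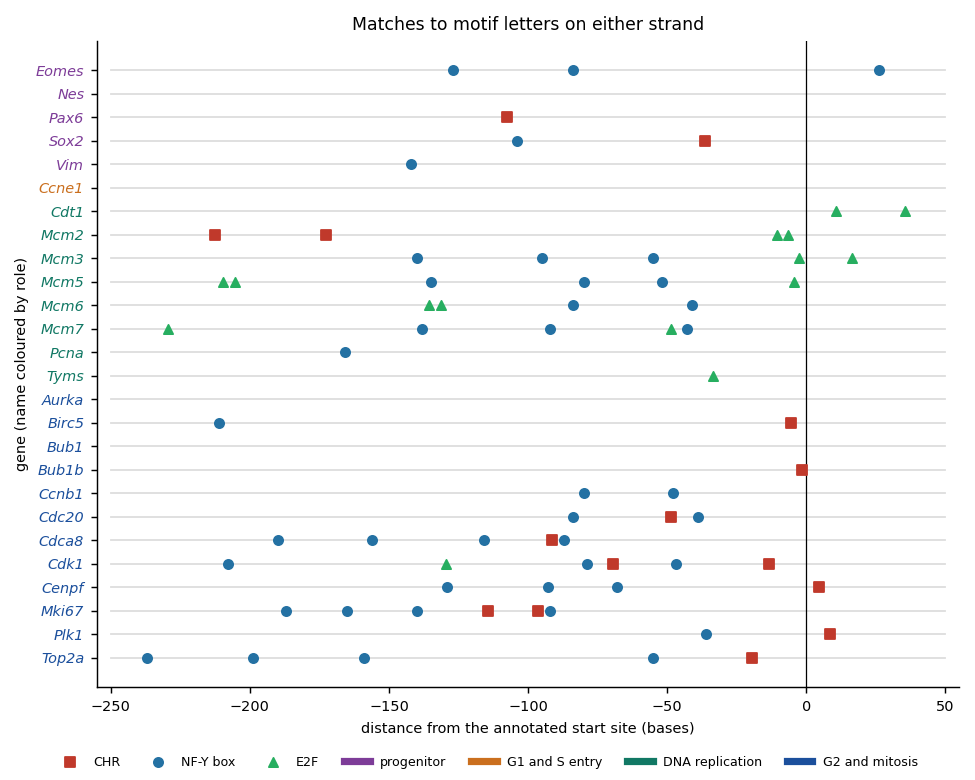
Position of matches to CHR (squares), the NF-Y box, that is CCAAT (circles), and E2F letters (triangles) on either strand in the promoter windows of the 26 matched genes, in bases from the annotated start, with gene names coloured by role. Triangles stand in 7 of the 8 replication rows, and squares in 9 of the 12 rows of G2 and mitosis.

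Under DCS none of the 34 genes passed the test in either direction, where 0.00614% of all tested genes (1 gene) fell and 0.00614% rose (0.0123% in either direction), and none did so with DESeq2 or limma. Without control library 3, 15 genes of the whole table were lower under DCS and 32 higher, still with no member among them. At an unadjusted p under 0.05, 4 were lower, Mki67, Top2a, Bub1 and Nes, against 3.05% of all genes, and none was higher (4.03% of all genes). Below 0 were 26 of 34, against 49.1% of all genes, with a median log2 fold change of -0.03, but this count ran from 19 without DCS library 1 to 28 without DCS library 3, and was 20 without control library 3. By library, the median deviation of the members from the control mean was -0.15, -0.17 and -0.11 on the log2 scale in ACS libraries 1, 2 and 3, and -0.10, -0.04 and -0.01 in DCS libraries 1, 2 and 3. The ACS and DCS libraries did not overlap in this median. By role, the G2 and mitosis members had a median log2 fold change of -0.05 under DCS and the replication members -0.02, and in Bub1, Cdca8, Top2a and Mki67 all 3 DCS libraries lay below all 3 control libraries, as in Nes and Pax6 but in no replication gene (6 of 34 members in all, against 5.51% of genes, and none above, against 5.59%).

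Compared directly, ACS and DCS had no member that passed with edgeR, where 0.123% of all tested genes were lower and 0.510% higher under ACS (0.633% in either direction). Below 0 were 28 of 34, against 50.6% of all genes. DESeq2 called Ccnd1 and Vim lower, and limma called none. At an unadjusted p under 0.05, 11 members were lower under ACS (6.66% of all genes) and none higher (7.22%). In 10 the ACS libraries lay below all DCS libraries (10.2% of all genes), and in Eomes alone above (11.2%). All 10 replication genes were below 0 (median log2 fold change -0.15), and the 16 of G2 and mitosis had a median of -0.07. The comparisons of each current with control share the control libraries, and those of ACS with each other group share the ACS libraries, so their values are set side by side only. Values for DCS against control that missed the threshold do not show equality. On the log2 scale the unadjusted 95% interval of Mki67 (-0.26 to -0.03) holds the -0.22 seen under ACS. That of Vim was -0.06 to 0.14.

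Beyond the members, a wider list of genes with the same roles was counted, chosen by role and with earlier results of these data known. Of 28 other replication genes, 1 fell and none rose under ACS (1.33% and 2.83% of all genes), 23 were below 0 (50.5% of all genes) and the median log2 fold change was -0.14. The gene that fell was Gins3, a subunit of the replicative helicase, at 6.62, 7.66 and 8.69 CPM in the ACS libraries, 9.41, 9.44 and 10.9 CPM in the DCS libraries and 10.5, 12.4 and 11.1 CPM in the control libraries (log2 fold change -0.57, SE 0.13, adjusted p = 0.0435). The most abundant of the list, Rrm1, the large subunit of ribonucleotide reductase, was at -0.18 (adjusted p = 0.0598). Of 43 other mitosis genes, 2 fell and none rose, 39 were below 0 and the median was -0.17, to be read against the same shares of all genes. The genes that fell were Ckap2 and Cks2. Ckap2, a spindle protein, had 35.9, 32.0 and 35.0 CPM under ACS, 36.5, 38.7 and 42.8 CPM under DCS and 48.8, 45.6 and 43.1 CPM in control neurons (-0.42, SE 0.08, adjusted p = 0.0195). Cks2, a subunit that binds Cdk1, had 7.51, 7.19 and 7.93 CPM under ACS, 9.83, 8.91 and 10.0 CPM under DCS and 10.5, 12.1 and 10.6 CPM in control neurons (-0.56, SE 0.11, adjusted p = 0.0238). In Gins3, Ckap2 and Cks2 the ACS libraries lay below all DCS and control libraries. Of the genes of both lists none passed under DCS. These calls depended on the libraries kept. Leaving out ACS library 1 or 2, or control library 1 or 2, each ended all 3. Of the 9 fits without a library, 3 called Gins3, 4 called Ckap2 and 5 called Cks2. In these fits the log2 fold change ran from -0.67 to -0.47 for Gins3, -0.46 to -0.37 for Ckap2 and -0.60 to -0.49 for Cks2. Ckap2 was also lost without ACS library 3, and Cks2 with the replicate number as a block (adjusted p = 0.0506). Gins3 was also lost without DCS library 1 or 2, with limma, with no filter and with only the ACS and control libraries.

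Of 21 cyclin, kinase, E2F and retinoblastoma genes none passed in any comparison with edgeR. Under ACS 3 of the 21 had an unadjusted p under 0.05, all lower, where 10.0% of all genes were lower. The median log2 fold change of the 21 was -0.07. Cdk4, the partner of the D cyclins and the most abundant of them at 196 FPKM, had 185 ± 3.46 CPM under ACS, 184 ± 2.88 CPM under DCS and 185 ± 1.17 CPM in control neurons (SD, n = 3 each). Rb1, the retinoblastoma protein, had a log2 fold change of -0.23 under ACS (adjusted p = 0.0731), Tfdp1, the partner of E2F factors, 0.04, and Ccnd3, the third D cyclin, 0.11. Of the 6 inhibitors of cyclin-dependent kinases in the table, 1 fell under ACS (1.33% of all genes), Cdkn1a, which encodes p21. It had 28.3, 27.9 and 27.9 CPM in the ACS libraries, 34.5, 34.6 and 38.9 CPM in the DCS libraries and 33.2, 33.5 and 35.7 CPM in the control libraries. The ACS libraries lay below all others, with log2 fold changes of -0.28 against control (SE 0.06, adjusted p = 0.0417) and -0.36 against DCS (adjusted p = 0.0449). Of the 9 fits without a library, 1 kept the call against control (that without DCS library 3) and 1 the call against DCS (that without control library 3), and with only the 6 libraries of the comparison both were lost (adjusted p = 0.0508 against control and 0.0766 against DCS). The call against DCS was also lost with limma (0.0550 and 0.0573 with pseudocounts of 0.1 and 1) and with no filter (0.0515). With the replicate number as a block both calls were lost (adjusted p = 0.0518 against control and 0.0627 against DCS). Cdkn1b (p27), the most abundant inhibitor at 52.3 FPKM, was at 0.05 under ACS (adjusted p = 0.827).

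Of 23 tested genes on the list of other progenitor markers, Hes5 fell and Msi1 rose under ACS (1.33% and 2.83% of all genes). Msi1, which encodes the RNA-binding protein Musashi of neural stem cells and astrocytes, had 141, 137 and 133 CPM in the ACS libraries, 120, 116 and 121 CPM in the DCS libraries and 103, 108 and 117 CPM in the control libraries. Its log2 fold change was 0.32 (SE 0.05, adjusted p = 0.0109) with no overlap between ACS and either other group. Hes5, a Notch target, had 1.05, 0.819 and 1.21 CPM in the ACS libraries, 3.08, 2.75 and 2.72 CPM in the DCS libraries and 2.39, 3.31 and 3.27 CPM in the control libraries. The ACS libraries again lay apart from the others. The log2 fold change of Hes5 was -1.54 against control (adjusted p = 0.00612) and -1.47 against DCS (adjusted p = 0.0208), at a mean level of 3.73 FPKM. Hes5 was called against control in all 9 fits without a library, and Msi1 in 6, failing without ACS library 1 or 2 or control library 2. The call of Hes5 against DCS stood in 5 of the 9. It was lost with the replicate number as a block (adjusted p = 0.0501). The most abundant, Fabp7, a fatty acid binding protein of radial glia and astrocytes, was at 612 FPKM, with a log2 fold change of -0.18 under ACS (adjusted p = 0.0896) and -0.16 under DCS. The median of the 23 was -0.06 under ACS.

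The cultures held markers of neurons and of several other cell types, given here as summed FPKM and, where that changes whether ACS and control overlap, as summed CPM. Counts under ACS against control are to be read against all tested genes, of which 50.5% were below 0 and 2.83% rose. The 12 neuronal markers summed to 1808 to 1867 FPKM in the ACS libraries, 1738 to 1838 FPKM in the DCS libraries and 1639 to 1789 FPKM in the control libraries. In CPM the ACS sums of 5308 to 5407 lay inside the control range of 5059 to 5570. Under ACS 3 of the 12 were below 0, the median log2 fold change was 0.05 and 1 passed the test, Rbfox3 (NeuN), a marker of mature neurons (0.43, adjusted p = 0.0081). Against DCS Rbfox3 was at 0.35 (adjusted p = 0.0486), a call kept in 1 of the 9 fits without a library and 4 of 9 alternative fits. The 7 astrocyte markers summed to 170.3 to 183 FPKM under ACS, 149.7 to 164 FPKM under DCS and 153 to 171 FPKM in control neurons. In CPM the ACS sums of 495 to 547 lay above the control sums of 400.5 to 478. Under ACS 2 of the 7 were below 0, the median was 0.22 and 1 passed, Gfap, the filament protein of astrocytes (0.25, adjusted p = 0.0281). Gfap missed the threshold with only the ACS and control libraries (0.0537) and with the replicate number as a block (0.0506). The 9 microglial markers summed to 74.3 to 78.5 FPKM under ACS, 80.8 to 85.1 FPKM under DCS and 73.8 to 77.3 FPKM in control neurons. Under ACS 4 of the 9 were below 0, the median was 0.0077 and 1 passed, the complement gene C1qa (0.76, adjusted p = 0.0252). Against DCS 5 of the 9 were below 0 under ACS, with none called. Against control, of the 9 fits without a library, 9 called Rbfox3, 5 Gfap (not without ACS library 1 or 3 or control library 1 or 2) and 5 C1qa (not without ACS library 1, 2 or 3 or control library 2). The 7 markers of the oligodendrocyte lineage summed to 174 to 191 FPKM under ACS, 179.7 to 204 FPKM under DCS and 173 to 203 FPKM in control neurons. The 9 interneuron markers summed to 282 to 293 FPKM under ACS, 273 to 299 FPKM under DCS and 246 to 292 FPKM in control neurons. Under ACS 1 of these 9 was below 0, the median log2 fold change was 0.18 and none passed the test. Of the endothelial and mural markers Rgs5 was at 0 in all libraries and Cldn5, Kdr, Tek and Flt1 were under 0.1 FPKM. That list summed to 10.4 to 14.1 FPKM under ACS, 8.33 to 13.3 FPKM under DCS and 9.62 to 10.3 FPKM in control neurons. The ACS sums thus lay above the control sums. Of the 7 genes tested, 3 were below 0 under ACS, the median log2 fold change was 0.04 and none passed. The 5 markers of meningeal fibroblasts in the table summed to 0.883 to 2.40 FPKM over all libraries. The 3 erythroid markers in the table summed to 18.5, 43.8 and 38.7 FPKM in ACS libraries 1, 2 and 3, 60.6 to 71.5 FPKM under DCS and 44.9 to 49.3 FPKM in control neurons. The groups did not overlap in this sum, but only 2 of the genes were tested and none passed in any comparison. The part of these other cell types in the differences of Vim, Mki67 and the other members was not tested. Mitochondrially encoded genes made up 5.64% to 6.06% of the counts in the ACS libraries, 5.33% to 5.86% in the DCS libraries and 5.65% to 6.90% in the control libraries.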

How the data were processed

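The study purified polyadenylated RNA, 3 libraries per group. Reads were trimmed with fastp, aligned with HISAT2 and quantified with StringTie on a transcriptome merged over all samples. The submitters' processing notes name cutadapt 1.9, HISAT2 2.0.4 and StringTie 1.3.4d. The methods call the rat reference GRCh38, a human build name, and the table names none. The deposited FPKM values are normalised by the authors for exon length and library depth, and the deposited estimated counts are whole numbers whose making is not given in the sources used here.

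Counts were scaled by TMM in edgeR 4.0.16 (R 4.3.3). Genes were kept by filterByExpr (at least 10 counts, total at least 15), which left 16284 of 32623. A quasi-likelihood fit over all 9 libraries gave every comparison, with Benjamini-Hochberg adjustment over all tested genes and calls at an adjusted p under 0.05. The common biological coefficient of variation was 0.218. The fit was also run on counts simulated from its own estimates of spread and the control means. This cannot show that it suits these data. Alternatives were DESeq2 1.42.0, limma 3.58.1 on log2(FPKM + pseudocount), other filters and scalings, a replicate block and leaving out each library. The members and lists were chosen with earlier results of these data known. Values in every library are given for called members, progenitor markers, Mki67, D cyclins and members with an unadjusted p under 0.05, and at most 4 genes are named per wider list, called genes first and then the most abundant. The motif search and the promoters shown were chosen after seeing the data. Promoter windows came from RefSeq (GRCr8), the first listed per gene.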

Additional observations from a re-analysis of the deposited data

How the results depend on the processing

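Of the members lower under ACS than control, 2 became 8 with the DESeq2 Wald test, 1 with limma on log2(FPKM + 0.1) or log2(FPKM + 1), 1 with no filter on low counts, and 1 with the 6 libraries of the comparison alone. Leaving out a library gave 0 to 5. Without the filter the gene was Mki67, with limma Mcm6, and with 6 libraries Ccnd1. Of the members lower under ACS than DCS, 0 became 2 with DESeq2, and 1 with a minimum mean FPKM of 1 or with counts divided by 4. Leaving out a library gave 0 to 1. No member was called higher in any comparison, or lower under DCS, under any of the 9 alternatives or the 9 fits without a library. The causes of these changes were not tested.

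The median log2 fold change of the members under ACS stayed between -0.15 and -0.14 under the alternatives and between -0.17 and -0.12 without a library, and 27 to 31 of 34 stayed below 0. Whether the replicate numbers pair the libraries was not settled. Deviations of same-numbered libraries from their group means correlated between -0.03 and 0.12. Of the 9 libraries, 4 correlated best with their own number in both other groups. With the replicate number as a block, 3 members were called under ACS, Ccnd1, Mcm4 and Vim, while Mki67 missed the threshold (adjusted p = 0.0619), as did Cks2 and Gfap (0.0506 each) and Cdkn1a (0.0518 against control, 0.0627 against DCS), and 121 genes in place of 217 were lower. DESeq2 called 945 genes higher and 707 lower under ACS than control where edgeR called 461 and 217, and 118 were lower with the 6 libraries alone. Without a library these ran from 116 to 881 higher and 22 to 550 lower, from 21 to 137 and 6 to 47 between ACS and DCS, and from 1 to 32 and 0 to 15 under DCS, each highest without control library 3. Between ACS and DCS, 83 higher and 20 lower became 416 and 244 with DESeq2, 48 and 11 with the block, 44 or 46 higher with limma (pseudocount 0.1 or 1) and 11 lower with 6 libraries, and under DCS DESeq2 called 27 higher and 11 lower in place of 1 and 1, and 0 were lower with limma (pseudocount 1), 6 libraries, the block or counts divided by 4. For the called genes outside the members, these alternatives were added after seeing the data. Of these, Hes5 and Rbfox3 were called against control in all 9 alternatives and all 9 fits without a library.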
